A study of Mus musculus with 24 samples.

Results

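The transcripts of the insulin-like growth factors Igf1 and Igf2, of the receptor Igf1r and of the binding proteins Igfbp2 to Igfbp7 were followed in cultured mouse liver endothelial cells in which P16 was silenced or overexpressed. The 9 genes were taken by symbol from the protein-coding rows of a table of 56748 genes, and all 9 were present. The table held 24 mRNA-sequencing libraries in 8 groups of 3. Cells had been taken from livers of C57BL/6 mice, which the methods describe as 3 months old and female, with magnetic beads against Cd31 (a general endothelial population) or against Cd146 (described as liver sinusoidal endothelial cells). Each population was transduced with 1 of 4 lentiviral constructs. The first was a short hairpin RNA against P16 in pLKO.1 (P16 shRNA) and the second its control, a non-coding (nc) shRNA delivered by pLKO.1 as well. The third was a P16 cDNA in pLenti-C-mGFP-P2A-Puro, which adds a green fluorescent protein to P16 (here P16), and the fourth that vector without an insert (empty vector). RNA was isolated 1 week after transduction, and every group therefore carried a lentivirus. Libraries keep the replicate numbers of their labels, which were not the same in every group.

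Insulin-like growth factors are secreted ligands that act through the tyrosine kinase receptor Igf1r, which signals through Irs adaptors, phosphatidylinositol 3-kinase and Akt. Most of the ligand outside cells is held by binding proteins, which extend its lifetime and either limit or assist its access to the receptor, and proteases such as Pappa release it. The liver is the main source of circulating Igf1. Several binding proteins, Igfbp3, Igfbp5 and Igfbp7 among them, are commonly listed among the factors that senescent cells secrete, and P16, an inhibitor of the cyclin D kinases encoded by Cdkn2a, is a marker of that state.

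Libraries held between 15409767 and 26470392 gene counts, so that 3 counts corresponded to 0.106 to 0.204 CPM (counts scaled to a common library total). Cdkn2a, the gene of P16, was at 36.2 to 76.0 CPM with nc shRNA and 5.13 to 9.22 CPM with P16 shRNA in Cd31+ cells, and at 94.6 to 196 against 7.80 to 25.7 CPM in Cd146+ cells. With the P16 construct it was at 137 to 330.4 CPM against 32.5 to 80.0 CPM with empty vector in Cd31+ cells, and at 228 to 834 against 69.6 to 104 CPM in Cd146+ cells. No library overlapped its control group in any of these 4 comparisons, although Cdkn2a passed the test across all genes in 1 of them, the silencing in Cd31+ cells. These counts are of the whole gene, so its transcripts are not told apart. Reads of the transduced P16 cDNA are not told apart from those of the cells' own gene either. The endothelial markers Pecam1 (4.05 to 281 CPM) and Cdh5 (3.70 to 367 CPM) were found in all libraries. Of the sinusoidal markers, Stab2 (0.0680 to 0.963 CPM) and Lyve1 (0.131 to 7.53 CPM) were low and Clec4g had 0 counts in 18 libraries. Stab1 ran from 3.63 to 431 CPM (median 27.2) and was highest in Cd146+ P16 replicate 5. A list of mesenchymal markers summed to 6729 to 51494 CPM, against 362 to 2698 CPM for the endothelial list, 16.8 to 400.0 CPM for the macrophage list, 0.136 to 2.79 CPM for the hepatocyte list, 38.7 to 983 CPM for the cholangiocyte list and 0 to 0.590 CPM for the lymphoid list. Since these are bulk samples, fewer cells of a type and less RNA per cell cannot be told apart. Against the methods, 16 libraries held 986 to 2976 counts of the Y-linked Ddx3y and at most 4 of Xist, and the other 8 held 6698 to 17948 counts of Xist and 0 of Ddx3y. Those 8 were Cd31+ number 5 with empty vector and with P16, and in Cd146+ cells every library numbered 5, P16 shRNA replicate 6 and empty vector replicate 4. The part of this difference in the results below was not tested beyond a fit with a term for it. Of these, Cd146+ empty vector replicate 4, stood apart: its mesenchymal sum was the lowest of the 24.

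Levels per length differed widely among the 9 genes. On the authors' FPKM scale, which divides by transcript length and can be compared between genes, Igfbp7, a secreted protein of the vessel wall with weak affinity for insulin-like growth factors, had the highest median over the 24 libraries (581 FPKM, range 218 to 1165). Igfbp3, the main carrier in blood, followed at 52.3 FPKM (5.02 to 243), and Igfbp2, at 43.7 FPKM, had the widest range of all (10.5 to 2422). Igfbp6, which prefers Igf2 as its ligand, was at 27.7 FPKM (1.92 to 130). The ligand Igf1 and its receptor were both plainly detected, at 11.5 FPKM (5.55 to 18.1) for Igf1 and 9.81 FPKM (5.39 to 19.8) for Igf1r. Igfbp4, the substrate of the protease Pappa, was at 9.59 FPKM (4.17 to 155), and Igfbp5 was far lower, at 0.432 FPKM (0.0721 to 3.75).

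Igf2, the fetal growth factor, was practically not detected. It had 0 counts in 13 libraries and at most 6 counts in any library, it did not reach the count needed for a test, and no fold change is given for it. Reads of Igf2 came from libraries numbered 3, 5 and 6. The liver's circulating carriers outside the list were likewise near 0, with Igfbp1 at 0 to 0.285 CPM and the acid-labile subunit Igfals at 0 to 0.695 CPM.

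The order of the levels was firm at its ends and not in its middle. Of the 36 pairs of genes, 21 stood in the same order in all 24 libraries. Igfbp7 was above Igfbp2 in 23 libraries, Cd146+ empty vector replicate 4 being the exception, and above each of the other 7 genes in all 24. Igfbp5 was below Igfbp4 in all 24. Neighbours in the middle could not be ranked, since Igfbp3 exceeded Igfbp2 in 13 of 24 libraries, Igf1 exceeded Igf1r in 15, and Igf1r exceeded Igfbp4 in 11.

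**Figure D1:**
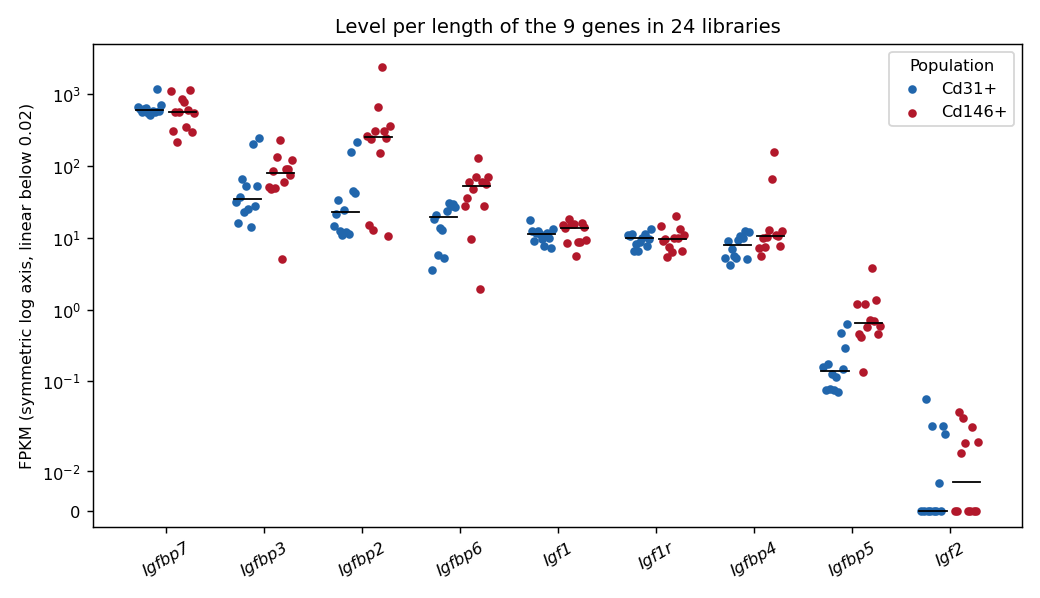
FPKM (log axis, linear below 0.02) of the 9 genes in the 24 libraries, with 1 point per library, Cd31+ in blue, Cd146+ in red and a black bar at the median. Igfbp7 (median 581 FPKM) lies at the top and Igf2 (median 0) at the bottom, and the points of Igfbp2 extend from 10.5 to 2422 FPKM.

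In the coordinates of the deposited table, Igfbp2 (ENSMUSG00000039323, chromosome 1, 72863662 to 72891633, forward strand) and Igfbp5 (ENSMUSG00000026185, chromosome 1, 72897091 to 72914043, reverse strand) are neighbours whose 3′ ends face each other. Igf1 (ENSMUSG00000020053) lies on chromosome 10, 87694127 to 87772904, and Igf1r (ENSMUSG00000005533) on chromosome 7, 67602575 to 67883416, both on the forward strand. Igfbp4 (ENSMUSG00000017493) lies on chromosome 11, 98932070 to 98945218, forward strand. The processing notes name mm9, but the build of these coordinates could not be settled, and only 2.78% of 52073 shared genes start where GENCODE M21 places them on GRCm38. Among the overlapping genes, only Polr2b, on the strand opposite to Igfbp7, had substantial counts (1215 to 2511 per library). Whether the counting used strand was not settled, so Igfbp7 and Polr2b may share reads.

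The bases before the transcription start are shown for 4 genes on which the results turn: the neighbours Igfbp2 and Igfbp5, whose levels varied together, Igfbp4, and the receptor Igf1r. They are the 250 bases before the start in RefSeq (GRCm38.p6, a build other than that of the table), and for Igfbp2 the first of 2 listed starts was used. The windows are chr1:72824230-72824479 (forward) for Igfbp2, chr1:72874866-72875115 (reverse) for Igfbp5, chr11:99040994-99041243 (forward) for Igfbp4 and chr7:67952007-67952256 (forward) for Igf1r. Capitals mark matches, searched on both strands, to 4 motifs. These were the TATA box, searched as TATAAA, and the GC box, searched as GGGCGG. The E-box was searched as CACGTG and the AP-1 type site as TGANTCA.
Igfbp2: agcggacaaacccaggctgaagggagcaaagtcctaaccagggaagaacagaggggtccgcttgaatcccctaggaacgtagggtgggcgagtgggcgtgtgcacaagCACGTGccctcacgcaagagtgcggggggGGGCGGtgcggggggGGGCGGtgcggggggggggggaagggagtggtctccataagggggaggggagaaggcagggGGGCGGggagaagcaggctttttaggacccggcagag
Igfbp5: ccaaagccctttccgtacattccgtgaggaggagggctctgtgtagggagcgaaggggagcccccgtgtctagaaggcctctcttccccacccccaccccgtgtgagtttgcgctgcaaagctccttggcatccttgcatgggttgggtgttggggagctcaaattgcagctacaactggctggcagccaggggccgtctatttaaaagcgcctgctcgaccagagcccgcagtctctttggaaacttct
Igfbp4: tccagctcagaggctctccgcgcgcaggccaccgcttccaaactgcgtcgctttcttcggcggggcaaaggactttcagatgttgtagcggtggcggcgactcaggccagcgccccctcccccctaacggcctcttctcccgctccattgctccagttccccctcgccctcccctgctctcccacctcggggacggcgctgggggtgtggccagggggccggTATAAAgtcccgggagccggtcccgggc
Igf1r: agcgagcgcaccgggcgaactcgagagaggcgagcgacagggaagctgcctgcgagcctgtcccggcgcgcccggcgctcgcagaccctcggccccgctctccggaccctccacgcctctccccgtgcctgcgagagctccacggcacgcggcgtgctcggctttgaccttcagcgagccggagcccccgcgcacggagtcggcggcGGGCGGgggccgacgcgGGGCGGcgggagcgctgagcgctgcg
Igfbp2 held GGGCGG at -113, -98 and -37 and CACGTG at -142 from the start, Igf1r held GGGCGG at -43 and -26, Igfbp4 held TATAAA at -28, and Igfbp5 held none of the 4 motifs. No matches overlapped in these 4 windows. Of the 32851 windows of this length in the RefSeq table, 12.4% held the TATA box, 32.7% the GC box, 6.02% the E-box and 6.75% the AP-1 type site. The GC content was 77.6% for Igf1r, 69.2% for Igfbp4, 67.2% for Igfbp2 and 58.8% for Igfbp5, against a median of 52.4% over all windows. These matches describe letters and not binding.

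Igfbp2 to Igfbp6 varied far more between libraries than the ligand and the receptor, and Igfbp7 varied little more. The standard deviation (SD) of log2 CPM over the 24 libraries was 2.30 for Igfbp2, 1.53 for Igfbp5, 1.47 for Igfbp6, 1.32 for Igfbp3 and 1.14 for Igfbp4, against 0.58 for Igfbp7, 0.44 for Igf1, 0.44 for Igf1r and 0.42 for the median gene. The highest library exceeded the lowest 227-fold for Igfbp2, 68.2-fold for Igfbp6, 51.5-fold for Igfbp5, 47.3-fold for Igfbp3 and 36.8-fold for Igfbp4, but 5.26-fold for Igfbp7, 3.59-fold for Igf1r and 3.33-fold for Igf1. For each tested member, more of this spread lay between replicate numbers within a population than between the groups. Of the variance of Igfbp2 on the log2 scale, 97.1% lay between the combinations of population and replicate number and 45.6% between the 8 groups. The share between numbers was 94.8% for Igfbp4, 92.9% for Igfbp3, 89.5% for Igfbp6, 88.3% for Igfbp7 and 88.1% for Igfbp5, and 72.2% for Igf1r, 64.8% for Igf1 and 70.4% for the median gene. The share between the 8 groups was 65.6% for Igfbp5, 65.2% for Igfbp4, 53.4% for Igf1r, 53.1% for Igf1, 29.4% for Igfbp3, 28.6% for Igfbp6 and 11.5% for Igfbp7, against 39.7% for the median gene. The combinations of population and number are 10 and the groups 8, both hold the difference between the populations, and the former include Cd146+ numbers 2, 4 and 6, which have a single library each and are matched exactly.

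Igfbp2 showed the pattern most clearly. In Cd31+ cells it was at 27.7, 40.9 and 62.7 CPM with nc shRNA (replicates 1, 2 and 3), at 23.6, 20.7 and 45.3 CPM with P16 shRNA (1, 2 and 3), at 23.1, 21.2 and 292 CPM with empty vector (1, 2 and 5) and at 84.1, 80.3 and 390.0 CPM with P16 (2, 3 and 5). The pair of libraries numbered 5 was the highest, both with empty vector and with P16, and no Cd31+ hairpin library carries that number. In Cd146+ cells Igfbp2 was at 491, 28.8 and 435 CPM with nc shRNA (1, 3 and 5), 24.5, 564 and 1206 CPM with P16 shRNA (3, 5 and 6), 286, 4523 and 571 CPM with empty vector (2, 4 and 5) and 452, 19.9 and 649 CPM with P16 (1, 3 and 5). The 3 Cd146+ libraries numbered 3 (19.9 to 28.8 CPM) were among the lowest of all, and the other 9 were at 286 CPM or more, a level reached in Cd31+ cells only by the libraries numbered 5.

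Igfbp3 was at 44.8 to 212 CPM in the 10 Cd31+ libraries with Ddx3y reads and at 633 and 754 CPM in the pair with Xist reads, which are the libraries numbered 5. Igfbp5 followed the same split, at 0.443 to 1.81 CPM against 2.81 and 3.80 CPM. In Cd146+ cells the ranges of the 6 libraries with Ddx3y reads and the 6 with Xist reads met for Igfbp2, at 19.9 to 491 against 435 to 4523 CPM. The number and the sex transcripts cannot be told apart for Cd31+ number 5. The sum of the endothelial list was also highest among Cd31+ libraries in this pair, at 1895 and 2355 CPM, against 362 to 1396 CPM in the others. In Cd146+ cells this sum was 468 to 531 CPM in the libraries numbered 3 and 975 CPM or more in the others. The part of these markers in the values of Igfbp2, Igfbp3 and Igfbp5 was not tested.

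**Figure D2:**
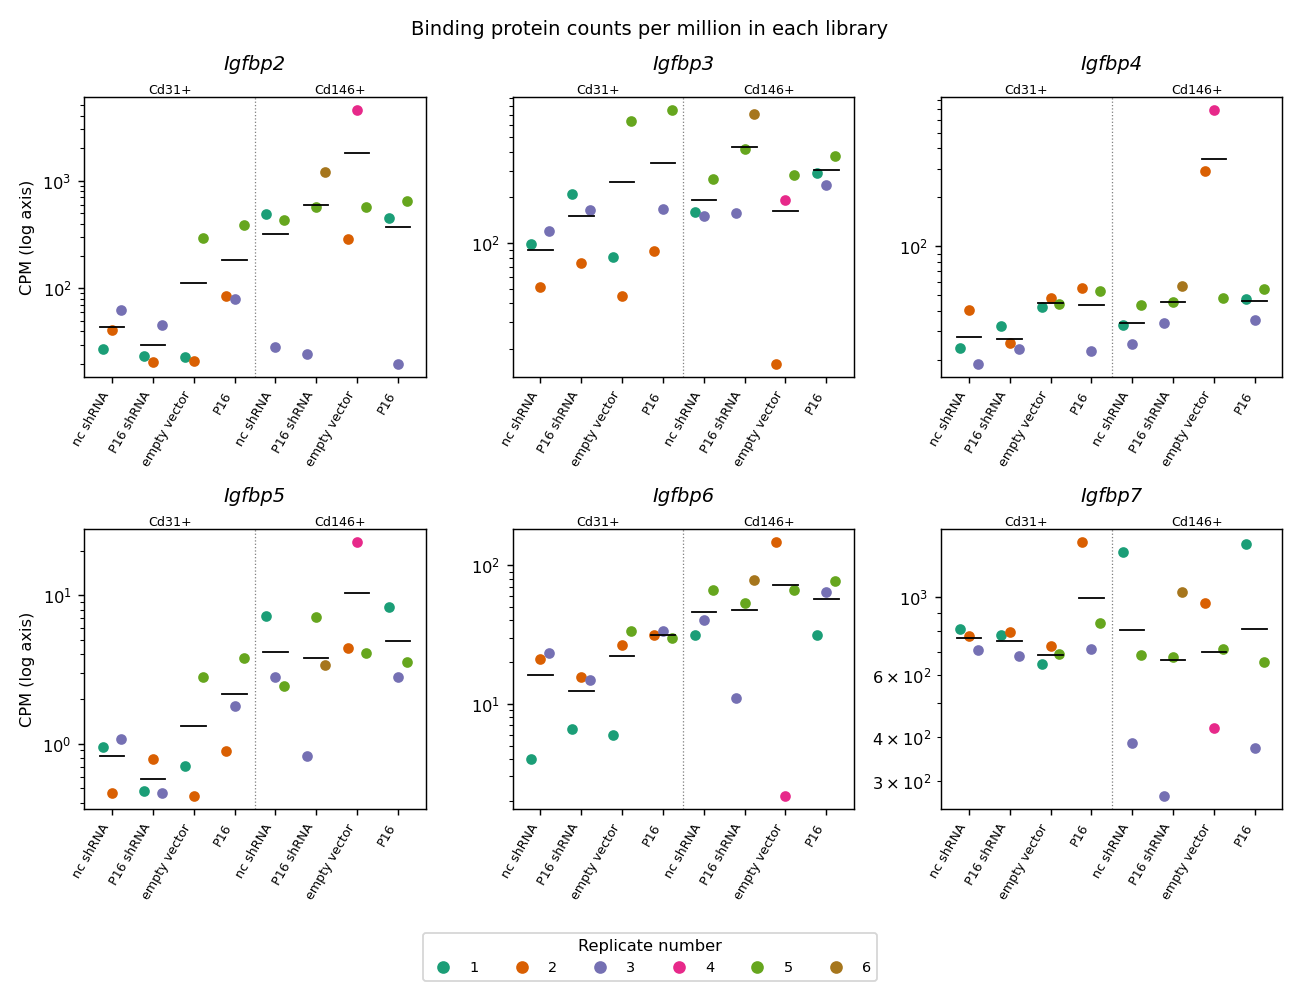
TMM-normalized CPM (log axis) of Igfbp2 to Igfbp7 in each library, by group, with the replicate number as the colour and a bar at the group mean. For Igfbp2, Cd31+ libraries numbered 5 (292 and 390.0 CPM) lie above the other Cd31+ libraries and Cd146+ libraries numbered 3 (19.9 to 28.8 CPM) lie below the other Cd146+ libraries.

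Igfbp4 and Igfbp6 were set apart by Cd146+ empty vector replicates 2 and 4. Igfbp4 was at 18.8 to 56.7 CPM in 22 libraries and at 291 and 691 CPM in those replicates. Igfbp6 was at 147 CPM in replicate 2, the highest of all libraries, and at 2.16 CPM in replicate 4, the lowest. Igfbp3 was at its lowest, 15.9 CPM, in replicate 2, and Igfbp5 at its highest, 22.8 CPM, in replicate 4. The third Cd146+ library with empty vector, replicate 5, was at 48.1 CPM for Igfbp4 and 66.2 CPM for Igfbp6. No other Cd146+ library carries the number 2 or 4, so that a part of the number and a joint part of number and construct cannot be told apart for replicates 2 and 4.

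With P16 silenced in Cd31+ cells, the receptor Igf1r was lower in every library than in the controls, without passing the test across all genes. Igf1r was at 187, 179.7 and 191 CPM with nc shRNA and at 111, 139 and 112 CPM with P16 shRNA (replicates 1, 2 and 3 in both), a mean of 186 ± 5.56 against 121 ± 15.6 CPM (SD, n = 3). All P16 shRNA libraries were below all controls, and the same-numbered pairs differed by -0.75, -0.37 and -0.76 on the log2 scale. The fitted difference was -0.62 on the log2 scale (standard error 0.117, 95% interval -0.89 to -0.34), which is 0.653 of the control level. With edgeR's quasi-likelihood test adjusted over all 14358 genes tested (Benjamini-Hochberg), the adjusted p was 0.0616 and did not pass 0.05. With the replicate number as a block it passed, at an adjusted p of 0.00500 in the fit of both groups and 0.00701 in that of the 12 Cd31+ libraries, and it also passed in DESeq2 (adjusted p 3.674e-04) and without a filter on low counts (0.00152).

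At an adjusted p under 0.05, 0 of the 8 tested members were called in this comparison, while 1.30% of all genes tested were. At an unadjusted p under 0.05 the count was 1 member, Igf1r, where 19.8% of all genes passed, and Igf1r was the only member whose groups did not overlap, where 27.4% of all genes did not. The count of 1 in 8 members is not above these shares. With the block in the fit of both groups, 3 members and 18.8% of genes were called, with the 12-library block 2 members and 16.8% of genes, in DESeq2 1 member and 7.68% of genes, and with all genes of at least 1 count 1 member and 3.73% of genes.

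Marker sums moved along with the construct in the same-numbered pairs. From nc shRNA to P16 shRNA the mesenchymal list went from 38087 to 51494, 20741 to 24740 and 30192 to 35110 CPM, and the endothelial list from 651 to 362, 685 to 602 and 1266 to 753 CPM (replicates 1, 2 and 3). The macrophage list went from 146.1 to 112, 69.5 to 49.4 and 39.2 to 30.1 CPM and the cholangiocyte list from 803 to 983, 99.3 to 232 and 104 to 189.9 CPM, all lower for the former and all higher for the latter. The part of these markers in the values of Igf1r, Igfbp3 and Igfbp2 was not tested.

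The members gained under the block were Igfbp3 and Igfbp2. Igfbp3 was at 99.2, 51.5 and 119.5 CPM with nc shRNA and at 212, 73.6 and 166 CPM with P16 shRNA, so that the groups overlapped but every same-numbered pair was higher, by 1.09, 0.52 and 0.47 on the log2 scale. Its fitted difference was 0.75 (standard error 0.463, adjusted p 0.426), and with the block 0.70 with an adjusted p of 0.00787 from both groups and 0.71 with 0.0161 from the 12 libraries. Igfbp2 was lower in each same-numbered pair, by -0.23, -0.98 and -0.47 on the log2 scale. Its fitted difference was -0.54 (standard error 0.409, adjusted p 0.514), and -0.55 with an adjusted p of 0.0296 in the blocked fit of both groups. The 5 other tested members had fitted differences between -0.50 (Igfbp5) and -0.02 (Igfbp7) on the log2 scale.

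Cd146+ cells gave the receptor a similar value with more spread. Igf1r was at 249.8, 154 and 160.2 CPM with nc shRNA (replicates 1, 3 and 5) and at 93.6, 124 and 105 CPM with P16 shRNA (3, 5 and 6), a mean of 188 ± 53.4 against 107 ± 15.2 CPM (SD, n = 3). The groups did not overlap, and the 2 same-numbered pairs differed by -0.72 and -0.37 on the log2 scale. The fitted difference was -0.80 (standard error 0.244, 95% interval -1.39 to -0.22), with an unadjusted p of 0.0138 and an adjusted p of 0.384 over 15124 genes (edgeR). With the replicate block over the 12 Cd146+ libraries it was -0.56 with an adjusted p of 0.0385, and with the block over both groups -0.55 with 0.203. In the pairs numbered 3 and 5 the mesenchymal list went from 27626 to 32023 and 26924 to 31113 CPM and the endothelial list from 531 to 468 and 2048 to 1792 CPM, and their part in this value was not tested either. The difference between the populations in this effect was -0.19 on the log2 scale (standard error 0.396, 95% interval -1.02 to 0.64, adjusted p 1.00), and this interval holds values in both directions.

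**Figure D3:**
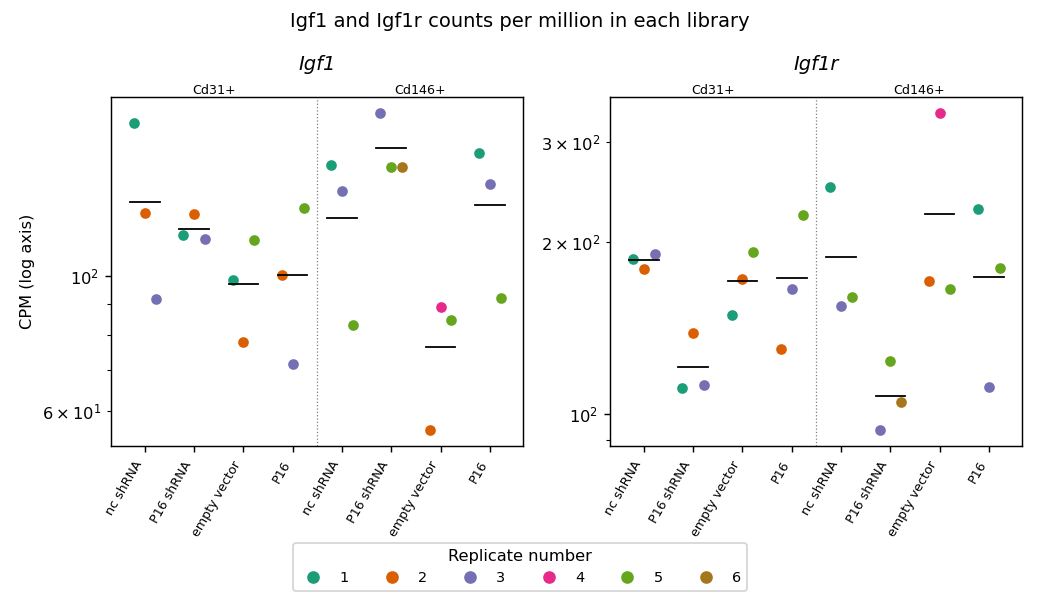
TMM-normalized CPM (log axis) of Igf1 and Igf1r in each library, by group, with the replicate number as the colour and a bar at the group mean. For Igf1r the P16 shRNA libraries (93.6 to 139 CPM) lie below the nc shRNA libraries (154 to 249.8 CPM) in both populations.

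In the same comparison Igf1 was at 152, 138 and 83.0 CPM with nc shRNA and at 186, 151 and 152 CPM with P16 shRNA, and the groups overlapped. Its fitted difference was 0.39 (unadjusted p 0.173), against 0.64 with an adjusted p of 0.0129 in the 12-library block and 0.64 with 0.199 in the block over both groups. In edgeR's test 0 members and 0% of genes passed at an adjusted p under 0.05, 1 member (Igf1r) and 11.6% of genes at an unadjusted p under 0.05, and 1 member (Igf1r) and 20.5% of genes had groups that did not overlap. The 12-library block called 2 members, Igf1r and Igf1, and 8.33% of genes, the block over both groups called 0 members and 0% of genes, and DESeq2 called 0 members and 2.20% of genes. Igfbp3 was higher by 1.17 on the log2 scale with an adjusted p of 0.448, and the values with P16 shRNA ran from 158 to 709.9 CPM. Igfbp2 was higher by 0.92 in the fit, but lower by -0.11 without P16 shRNA replicate 6 and by -1.18 with a term for Xist or Ddx3y.

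Overexpression of P16 in Cd31+ cells moved no member past the test without a replicate block. Igfbp7 was at 644, 725 and 687 CPM with empty vector (1, 2 and 5) and at 1432, 709.7 and 842 CPM with P16 (2, 3 and 5), with a fitted difference of 0.54 and an unadjusted p of 0.0823. Igf1r differed by 0.02 and Igf1 by 0.06 on the log2 scale. At an adjusted p under 0.05, 0 members and 0% of 14565 genes passed in edgeR. At an unadjusted p under 0.05, 0 members and 3.73% of genes passed, and 0 members and 10.7% of genes had groups that did not overlap. DESeq2 called 0 of the 7 members to which it gave an adjusted p, gave none to Igfbp2, and called 0.0275% of genes.

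Igfbp2 depended on how the replicate numbers were handled. With the number as a block in both groups its difference was 1.19 with an adjusted p of 2.205e-04, the only member among the 0.632% of genes called by that fit, which rests on the pairs numbered 2 and 5 (1.99 and 0.42 on the log2 scale). The 12-library block gave 1.10 with an adjusted p of 0.303. Without a block it was 0.73 (standard error 1.20), -0.47 without P16 replicate 5 and 3.09 without empty vector replicate 5. Igfbp3, at 0.42 without a block, turned to -1.003 without P16 replicate 5. From empty vector to P16 in the pairs numbered 2 and 5, the endothelial list went from 639 to 923 and 1895 to 2355 CPM. The mesenchymal list went from 18957 to 20057 and 20910 to 18282 CPM in these pairs. The part of these markers in the values of Igfbp2 and Igfbp3 was not tested.

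In Cd146+ cells with P16, Igfbp4 was lower than with empty vector, and 2 of the 3 control libraries were high. Igfbp4 was at 291, 691 and 48.1 CPM with empty vector (2, 4 and 5) and at 47.2, 35.2 and 54.7 CPM with P16 (1, 3 and 5). The P16 libraries lay within the range of the other 22 libraries, and empty vector replicates 2 and 4 did not. The fitted difference was -2.90 on the log2 scale (standard error 0.890, 95% interval -5.07 to -0.73, unadjusted p 0.0170, adjusted p 0.986). Without these replicates it was -0.09, and with the replicate block over 12 libraries, which for this comparison rests on empty vector replicate 5, it was 0.20. The difference between the populations in this effect, -2.87 (standard error 0.806, unadjusted p 0.00221, adjusted p 0.989), was 0.13 with the block.

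Igf1 was the only member whose P16 libraries all lay above the controls in these cells, and 3 of the 8 members were higher in the fit. Igf1 was at 55.7, 88.9 and 84.6 CPM with empty vector and at 159, 142 and 92.1 CPM with P16 (replicates in the same order). The fitted difference was 0.78 (standard error 0.275, 95% interval 0.11 to 1.44, unadjusted p 0.0291, adjusted p 0.986), 0.61 without empty vector replicates 2 and 4, and 0.16 with the block. With these values 2 members passed at an unadjusted p under 0.05, where 3.53% of genes did, and 0 members and 0% of 14860 genes passed at an adjusted p under 0.05 in edgeR. Igf1 was 1 member without overlap, where 8.55% of genes had none. DESeq2 called 0 members and 0.00673% of genes.

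**Figure D4:**
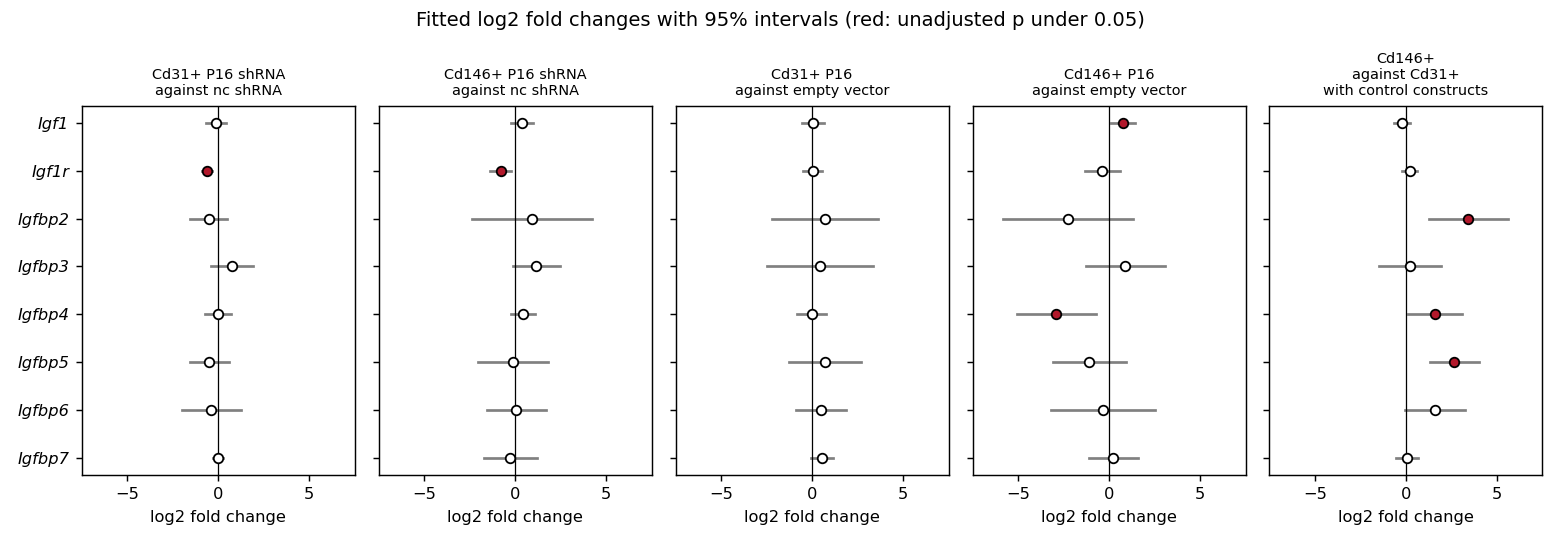
Fitted log2 differences (points) with 95% intervals (lines) of the 8 tested members in 5 comparisons, in red where the unadjusted p was under 0.05. Igf1r lies below 0 in both P16 shRNA comparisons (-0.62 and -0.80), and the widest intervals belong to the binding proteins.

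Between the populations, read from the 6 libraries each with nc shRNA or empty vector, the binding proteins Igfbp2, Igfbp5 and Igfbp4 were higher in Cd146+ than in Cd31+ cells at an unadjusted p under 0.05, and none passed after adjustment. Cd31+ numbers 1 and 2 and Cd146+ number 5 entered with both constructs. The fit and DESeq2 took these libraries as independent, so their standard errors and p-values may be too small. With either construct alone, 0 members and 0% of genes passed at an adjusted p under 0.05 in edgeR. Igfbp2 differed by 3.44 on the log2 scale (standard error 0.992, 95% interval 1.26 to 5.61, unadjusted p 0.00517, adjusted p 0.154 over 15676 genes). Igfbp5 differed by 2.66 (standard error 0.613, unadjusted p 0.00110, adjusted p 0.139). Its control values were 0.443 to 2.81 CPM in Cd31+ cells and 2.46 to 22.8 CPM in Cd146+ cells, so that the groups overlapped for a low transcript. Igfbp4 differed by 1.62 (unadjusted p 0.0347, adjusted p 0.255), by 0.29 in the nc shRNA libraries alone, by 2.94 in the empty vector libraries alone, and by 0.23 without Cd146+ empty vector replicates 2 and 4.

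Without those replicates Igfbp2 differed by 2.70 and Igfbp5 by 2.09, and with a term for Xist or Ddx3y by 2.85 and 2.45. Thus 3 members passed at an unadjusted p under 0.05, where 17.5% of genes did, and 0 members and 0% of genes at an adjusted p under 0.05 in edgeR. DESeq2 called 2 members, Igfbp2 (adjusted p 0.0101) and Igfbp5 (0.00118), and 4.22% of genes. With the replicate number as a term, which treats a number as shared by both populations, 0 members and 0.364% of genes were called. No member had groups without overlap, and 1.66% of genes did. Igf1, Igf1r, Igfbp3 and Igfbp7 differed by -0.22 to 0.23 on the log2 scale.

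The tests of a difference between the populations in the effect of a construct called 0 members. For P16 shRNA 0% of 16524 genes passed at an adjusted p under 0.05 and 1.20% at an unadjusted p under 0.05, with 0 members in either. For P16 0% passed at an adjusted p and 3.82% at an unadjusted p under 0.05, with 1 member in the latter, Igfbp4. DESeq2 called 0 members in both, with 0% of genes for P16 shRNA and 0.0182% for P16. The median difference of the 8 members was -0.26 on the log2 scale for P16 shRNA in Cd31+ cells (0.00 for all genes) and 0.22 in Cd146+ cells (0.03 for all genes). With P16 the median was 0.47 for Cd31+ (0.01) and -0.34 for Cd146+ cells (0.00). Between the populations it was 0.92 (0.02).

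The signalling genes around the receptor were read from a list of 57 pathway genes. Of these, 52 could be tested in Cd31+ cells, of which 0 rose and 2 fell at an adjusted p under 0.05. They were Gsk3b, a kinase that Akt inhibits, and Irs2, an adaptor of the insulin and Igf1 receptors. Gsk3b fell by 1.10 on the log2 scale (standard error 0.121, adjusted p 0.0183), from a mean of 169 ± 16.3 to 78.4 ± 7.69 CPM (SD, n = 3). Irs2 fell by 0.86 on the log2 scale (standard error 0.089, adjusted p 0.0183), from 61.7 ± 2.46 to 33.8 ± 0.954 CPM. Without any 1 of the P16 shRNA libraries, 0 genes of the whole table passed, and without 1 of the nc shRNA libraries 7 to 64 did. In a fit of all 12 Cd31+ libraries without a block, Gsk3b alone of the list passed. At an unadjusted p under 0.05, 3 of the 52 were higher and 11 lower, where 1366 of the 14358 genes were higher and 1477 lower. In the fit 35 of the 52 were lower, where 7133 of 14358 genes were, and the median of the list was -0.16 against 0.00 for all genes. With the replicate block, 2 rose and 13 fell in the fit of both groups, where 18.8% of all genes were called, and 2 of 53 rose and 12 fell in the 12-library fit, where 16.8% were.

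In Cd146+ cells 0 of 53 passed at an adjusted p under 0.05, and 1 was higher and 6 lower at an unadjusted p under 0.05, where 823 of the 15124 genes were higher and 934 lower. In the fit 36 of the 53 were lower, where 7280 of 15124 genes were, and the median was -0.33 against 0.03 for all genes. Gsk3b had the smallest p of the list, at -1.35 on the log2 scale (unadjusted p 1.345e-04, adjusted p 0.308), from a mean of 133 ± 15.9 to 52.0 ± 5.57 CPM. It passed in the 12-library block (-1.17, adjusted p 0.00144), in which 1 of the 53 rose and 5 fell and 8.33% of all genes were called, and in DESeq2 (adjusted p 4.588e-09). It did not pass in the block over both groups (-1.18, adjusted p 0.0994), which called 0 genes of the list. Tsc2, a brake on mTOR signalling, was at -0.56 (unadjusted p 0.0127, adjusted p 0.384).

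**Figure D5:**
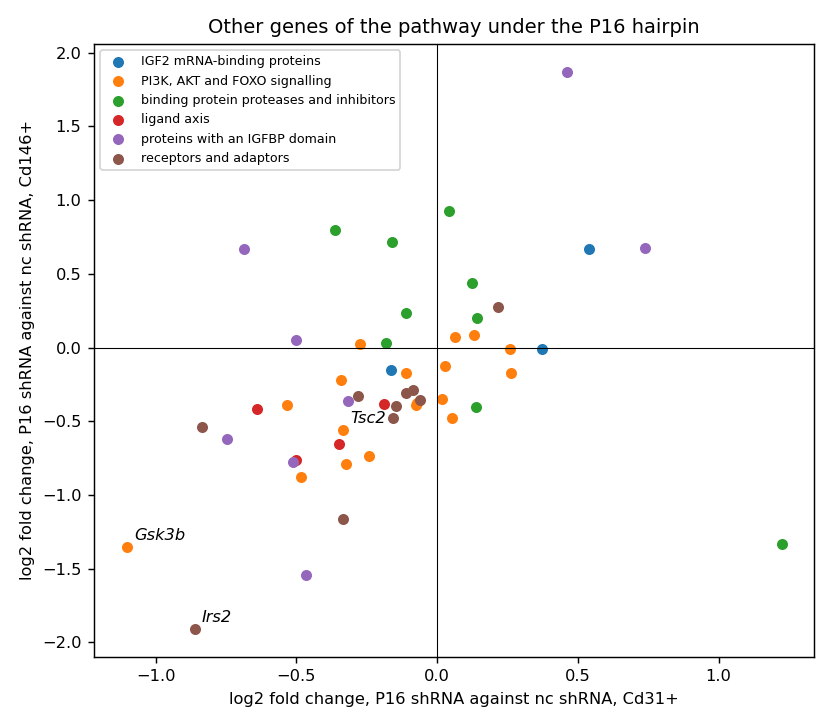
Log2 difference of P16 shRNA against nc shRNA for 52 pathway genes, in Cd31+ cells (x axis) and Cd146+ cells (y axis), with 1 point per gene. In the plot 28 genes lie below 0 on both axes and 9 above 0 on both, and Gsk3b (-1.10 and -1.35) lies lowest among the labelled genes on the x axis.

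Overexpression moved 0 genes of the list past an adjusted p under 0.05 in edgeR or DESeq2 in either population. The smallest unadjusted p values in Cd31+ cells were those of the protease Adam12 (-0.49, p 0.0204, adjusted p 0.947) and the Akt phosphatase Phlpp1 (-0.47, p 0.0533, adjusted p 0.947). In Cd146+ cells the smallest were those of the protease Pappa2 (2.11, p 0.0573, adjusted p 0.986) and the mRNA-binding protein Igf2bp3 (2.14, p 0.0682, adjusted p 0.986). Between the populations Phlpp1 (-1.04, p 4.54e-04, adjusted p 0.125) and Adam12 (-0.87, p 0.00576, adjusted p 0.158) were the lowest in p, with 4 of 53 genes higher and 6 lower in Cd146+ cells at an unadjusted p under 0.05, where 17.5% of all genes passed. The replicate number as a term treats a number as shared by both populations. With this term Phlpp1 passed (-0.84, adjusted p 0.0279), as did Igf2bp3 (2.38, adjusted p 0.0444). In DESeq2 Phlpp1 (adjusted p 0.00141) and Adam12 (0.0353) passed. For the difference between the populations in the effect of P16 shRNA the smallest p values were those of Pappa2 (-2.55, p 0.0634) and Rptor (-0.43, p 0.0978), and in the effect of P16 Stc1 (-3.26, p 0.0297) and Irs2 (1.91, p 0.0395), with an adjusted p of 0.989 for the last pair.

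The genes whose levels were most like those of each member are given as a description, by the lower of 2 Pearson r of log2 CPM over the 12 Cd31+ and the 12 Cd146+ libraries, which share replicate numbers. For Igf1r the nearest was Slc5a3, an inositol transporter (0.979 and 0.989), then Tulp4 (0.929 and 0.910) and Ids (0.891 and 0.903). For Igfbp2 they were Myct1 (0.955 and 0.957), Tspan6 (0.943 and 0.974) and Dnajb5 (0.938 and 0.937). For Igfbp6 the nearest was Ankrd1 (0.922 and 0.935), for Igfbp5 Slc9a3r2 (0.865 and 0.856), for Igfbp4 Adgre5 (0.847 and 0.931), for Igfbp3 Tubb4a (0.847 and 0.891), for Igf1 Foxq1 (0.807 and 0.876) and for Igfbp7 Fth1 (0.774 and 0.764). Among the members, the neighbours Igfbp2 and Igfbp5 had an r of 0.868 in Cd31+ and 0.738 in Cd146+ cells. Such likeness was not particular to neighbours, since Igf1r and Igfbp5 had 0.638 and 0.807, and Igf1r and Igfbp2 had 0.522 and 0.604. Igfbp2 and Igfbp3 had 0.822 in Cd31+ but 0.225 in Cd146+ cells, and Igfbp3 and Igfbp5 had 0.789 and 0.0237, so that these likenesses were not shared by the populations.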

How the data were processed

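The authors deposited 1 table of raw read counts per gene and of FPKM values per gene for 24 mRNA-sequencing libraries of cultured Cd31+ and Cd146+ mouse liver endothelial cells, made 1 week after lentiviral transduction. Per the labels, libraries were made from poly-A RNA, and the submitters' processing notes name fastp and mm9. The aligner and the counting program are not given in the sources used here. Within a library the deposited FPKM equals the count over the gene's length and a library factor that follows TMM (0.967 to 1.015 times TMM CPM per kilobase), so it was used to compare levels between genes, and counts were used for every test. Columns of the authors' own comparisons (fold changes and p-values) were left aside.

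Counts were normalized by trimmed means (TMM) and tested with edgeR 4.0.16 (glmQLFit and glmQLFTest, limma 3.58.1, R 4.3.3) on the groups of each comparison, after filterByExpr with the groups. The tests of a difference between the populations in the effect of a construct used all 24 libraries. The test of Cd146+ against Cd31+ cells used the nc shRNA and empty vector libraries, with the construct as a term. Adjusted p-values are Benjamini-Hochberg over all genes tested, with a threshold of 0.05. In 2 groups of 3, an exact permutation test cannot go below 0.1, so none was used. Log2 CPM had an offset of 0.5 counts. Self-tests ran before the tests, on counts simulated from the gene means, library sizes and dispersions of the real libraries. Alternatives were DESeq2 1.42.0 (Wald test and size factors), no count filter, all libraries of a population, each library left out and the replicate number as a block. A term for Xist or Ddx3y reads and the omission of Cd146+ empty vector replicates 2 and 4 were added after seeing the data.

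Groups and replicate numbers came from the sample labels. Same-numbered libraries of a population deviated together from their group means, with a median r of 0.474 over 13 pairs (lowest 0.321) in Cd31+ cells. In Cd146+ cells it was 0.686 over 10 pairs (lowest 0.379). For different numbers the medians were -0.156 and -0.0755, so the numbers were taken to pair libraries within a population. The main fits do not use this pairing and treat same-numbered libraries as independent, because the methods of the study name no block. Their counts of 0 members hold for fits without a block only, and the blocked fits are given beside them. Between the populations the median was 0.0988 over 27 same-numbered pairs (lowest -0.0431), against -0.00975 for different numbers. The fit between the populations with the number as a term used a number as shared all the same. What a number stands for is not given in the sources used here. In 6 of the 8 groups libraries with Ddx3y and with Xist reads stand together, so these cannot all be repeats of 1 sample, but nothing says that every library is a separate animal or culture, and p-values measure the spread between these libraries, which may in part be technical. The 9 members, the pathway and marker lists and the comparisons were chosen with earlier results of these data known. Named besides the members are Cdkn2a, the pathway genes with an adjusted p under 0.05 or, failing that, the pair with the smallest p of a comparison, up to 3 nearest genes by likeness, overlapping genes and cell-type markers. Promoter sequences were read from a RefSeq table, in which all 9 members were found.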

Additional observations from a re-analysis of the deposited data

How the results depend on the processing

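Counts of members at an adjusted p under 0.05, all 0 in the analysis reported, were 3 (replicate block of both groups), 2 (12-library block), 1 (no count filter) and 1 (DESeq2) for P16 shRNA in Cd31+ cells, 2 (12-library block) for P16 shRNA in Cd146+ cells, 1 (block of both groups) for P16 in Cd31+ cells, and 2 (DESeq2) between the populations. Over all genes the count for P16 shRNA in Cd31+ cells was 186, against 2703, 2586, 1294 and 1103 under those alternatives, 373 with the 12 libraries without a block and 0 to 64 with 1 library left out. The other comparisons had 0, against 1326 with the 12-library block and 333 by DESeq2 for P16 shRNA in Cd146+ cells, 92 with the block of both groups for P16 in Cd31+ cells, and 57 with the block and 661 by DESeq2 between the populations. Other alternatives gave these at most 23 genes. No block of both groups was fitted for P16 in Cd146+ cells, where P16 and empty vector share only number 5. For that comparison the 12-library block alone was used. The cause of the changes below was not tested.

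Changes of sign among log2 differences are given with the range over single libraries left out. For P16 shRNA in Cd31+ cells, Igfbp4 (-0.039) was 0.029 with the 12-library replicate block and 0.019 with that of both groups (-0.26 to 0.33), Igfbp7 ranged from -0.073 to 0.049 and Igf1 from -0.35 to 0.12. In Cd146+ cells Igfbp6 (0.06) was -1.02 and -1.07 with these blocks and -0.85 with the Xist term (-0.52 to 0.52), Igfbp5 (-0.12) was 0.29 and 0.077 (-0.98 to 0.53), Igfbp2 (0.92) was -1.18 with the Xist term (-0.11 to 1.48, the lowest without P16 shRNA replicate 6) and Igfbp7 ranged from -0.78 to 0.29. For P16 in Cd31+ cells Igf1r (0.02) was -0.021 and -0.091 with the blocks and -9.587e-04 with the Xist term (-0.22 to 0.20), Igfbp4 (-0.04) was 0.073 and 0.23 (-0.23 to 0.27), Igfbp2 ranged from -0.47 to 3.09, Igfbp3 from -1.003 to 2.46 and Igf1 from -0.18 to 0.25. In Cd146+ cells the 12-library block gave Igfbp7 -0.0077 (-0.45 to 0.58), Igfbp4 0.20, Igfbp6 0.57 (-0.88 to 0.73) and Igfbp5 0.14 (-1.72 to 0.20), and without empty vector replicates 2 and 4 Igfbp5 was 0.24 and Igf1r 0.051 (-0.62 to 0.046). Between the populations Igfbp3 (0.23) was -0.63 with empty vector alone, -0.47 with the number as a block and -0.45 with the Xist term (-0.013 to 1.22), and Igfbp7 ranged from -0.20 to 0.20. Of the differences between populations in the effect of a construct, the block turned Igf1r for P16 shRNA to 0.071 (-0.31 to 0.062), Igf1 for P16 to -0.058 and Igfbp4 for P16 to 0.13. The block changed no call of a member other than those given. Depth limits Igf2 and, at about 1 CPM, Igfbp5 in Cd31+ cells.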
